A study of Homo sapiens with 9 samples.

Results

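CDKN1A and MYC stand at opposite ends of the decision to divide. CDKN1A encodes p21, an inhibitor of cyclin-dependent kinases that p53 and many other signals switch on; by blocking those kinases it keeps RB-family proteins active, and these hold down the genes of DNA replication and mitosis. MYC encodes a transcription factor that pairs with MAX, raises genes of growth, metabolism and ribosome assembly, and is known to repress CDKN1A through the partner MIZ1. In clear cell renal carcinomas that have lost VHL, hypoxia-inducible factors are freed and in turn act on MYC. Whether the line used here has lost VHL was not examined.

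The 2 genes were followed through RNA sequencing of Caki-1, an established human line of clear cell renal carcinoma, in 9 libraries. Of these, 3 libraries named SH3 and 3 named SH1 came from cells with a short hairpin RNA knockdown of TAF1D, a subunit of the selectivity factor of RNA polymerase I, which transcribes ribosomal RNA, and 3 were controls whose genotype the labels give as WT. The labels do not say what SH3 and SH1 stand for, how many clones each line was made from, or whether the control carried a hairpin. They number the libraries 1 to 3 in each group without saying whether these came from separate cultures, so every p-value measures the spread between these samples, which may be technical.

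The members are the rows whose symbol is CDKN1A or MYC. They make up 3 of the 20909 transcript rows and 2 of the 6819 genes in the deposited table. They were chosen with their levels in these libraries known, so their own values are given below as a description. Where their place in the fit over all genes is stated, nothing is read from it. Chromosome 6 carries CDKN1A, and 2 of its 10 coding transcripts in RefSeq are rows of the table. MYC lies on chromosome 8, and 1 of its 2 coding transcripts is a row. The remaining transcripts of both genes were not analysed here, so a sum below is a sum over listed rows and not the gene's whole output.

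The table is a selection: in 100% of its rows the estimated counts of SH1 1 and control 1 differ at least 2-fold. Among the remaining 35 pairs, that share was 51.51% to 64.85%. These libraries are therefore more extreme in it than the other 7, so calls and list medians are also given without them where they change. The listed rows sum to between 1358215 and 1596467 estimated counts per library and to between 4.2% and 5.18% of the TPM. These sums are not the depth of the libraries, which is unknown. TAF1D has 0 rows, so the loss of its own message was not examined.

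CDKN1A was higher in both knockdown groups. Its main row is NM_000389, which pairs with a transcript of 3 exons and 2180 bases in GENCODE release 29. In the SH3 libraries it had 15.5, 16.69 and 17.45 FPKM (fragments scaled to transcript length and library size), in the SH1 libraries 12.82, 13.06 and 15.6 FPKM, and in the control libraries 5.57, 5.89 and 5.48 FPKM. Every knockdown library lay above every control library, while SH3 1 lay just below SH1 3. Such a gap, with the knockdown higher, was found in 7.26% of 17495 rows tested in SH3 against control and in 9.63% in SH1 against control. The means were 16.5 ± 0.983 FPKM in SH3, 13.8 ± 1.54 FPKM in SH1 and 5.65 ± 0.215 FPKM in the control (SD, n = 3 each). Mean FPKM was thus 2.93 times the control in SH3 and 2.45 times in SH1. Fitted on the row's counts, the log2 fold change was 1.51 ± 0.35 (SE) for SH3 against control, 1.19 ± 0.34 for SH1 against control and 0.32 ± 0.34 for SH3 against SH1. In a bulk library, fewer cells expressing a gene and less RNA per cell cannot be told apart.

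These values rested on 632.61, 685.3 and 723.83 estimated counts in SH3, on 515.26, 528.94 and 648.37 in SH1, and on 225.06, 242.91 and 217.78 in the control. Counting error alone then amounted to between 3.72% and 6.78% of a library's value, beside an SD between libraries of 5.94% of the mean in SH3, 11.1% in SH1 and 3.82% in the control. Counts of sequenced fragments are not independent molecules, so this error covers counting only.

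The other CDKN1A row, NM_001220778, was low and present in only some libraries. It had 1.79, 0 and 1.14 FPKM in SH3, 0, 0.82 and 1.46 FPKM in SH1, and 0.55, 0 and 0 FPKM in the control. All 3 groups overlapped. Its log2 fold change was 2.34 ± 2.74 (SE) for SH3 against control, 1.94 ± 2.70 for SH1 against control and 0.40 ± 2.61 for SH3 against SH1, each smaller than its error. Both fold changes against the control rest on 1 control library, since without control 1 that group has no counts for the row. The SH3 against SH1 value turned to -0.38 without SH3 1 and to -1.97 with the replicate block.

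The 2 CDKN1A rows carry the same protein and are nearly the same RNA. In GENCODE release 29 both have 3 exons and the same coding stretch of 495 bases with its stop. They share 2126 bases, which are 97.5% of NM_000389 and 93.8% of NM_001220778, and they differ in their first exons of 141 and 230 bases, whose starts lie 52 bases apart. A fragment from the shared bases cannot be placed on 1 row, so the split between them is an estimate. NM_001220778 took 11%, 0% and 6.5% of the CDKN1A counts in SH3, 0%, 6.31% and 9.1% in SH1, and 9.55%, 0% and 0% in the control. Each group has at least 1 library at 0, and the split does not separate them.

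Summing the 2 rows removes the uncertainty of the split between them, but not that of a split with the coding transcripts that are not listed. The CDKN1A sum was 17.29, 16.69 and 18.59 FPKM in SH3, 12.82, 13.88 and 17.06 FPKM in SH1, and 6.12, 5.89 and 5.48 FPKM in the control. Again no knockdown library reached down to a control library, and the SH3 and SH1 ranges met at their edges. Group means were 17.5 ± 0.971, 14.6 ± 2.21 and 5.83 ± 0.324 FPKM in SH3, SH1 and control (SD, n = 3 each). The log2 fold change of the sum was 1.51 ± 0.18 (SE) for SH3 against control, 1.16 ± 0.18 for SH1 against control and 0.34 ± 0.18 for SH3 against SH1. Both comparisons use the same 3 control libraries.

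Set against all genes, the CDKN1A sum passed an adjusted p of 0.05 in edgeR's quasi-likelihood test in both comparisons with the control. In SH3 against control 0.406% of the 6398 genes tested on summed rows did so, and in SH1 against control 2.14%. Libraries of the groups did not overlap, with the knockdown higher, for 10.2% of genes in SH3 against control and for 12.9% in SH1 against control. Since the gene was picked from these contrasts, nothing is read from its place among them. On single rows no CDKN1A row passed, where 0.0286% of rows did in SH3 against control and 0.131% in SH1 against control. Over 18 settings of the test the sum passed in 8 for SH3 against control, in 12 for SH1 against control and in 0 for SH3 against SH1. Leaving out control 1 and SH1 1 together, or control 3, SH1 2 or SH3 1 alone, ended the pass in both comparisons with the control. Leaving out control 1, control 2, SH3 2 or SH3 3 ended it for SH3 against control.

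The start of CDKN1A is shown because the row that carries most of the gene's listed counts begins there. The stretch below is from the RefSeq promoter table (GRCh38.p14, chr6:36678464-36678657, + strand) and ends just before the start of the GENCODE transcript paired with NM_000389. Bases after that start were not searched. Capitals mark GGGCGG, the GC box bound by SP1-family factors, and CAGCTG, an E-box of the form bound by many helix-loop-helix factors.

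CDKN1A promoter: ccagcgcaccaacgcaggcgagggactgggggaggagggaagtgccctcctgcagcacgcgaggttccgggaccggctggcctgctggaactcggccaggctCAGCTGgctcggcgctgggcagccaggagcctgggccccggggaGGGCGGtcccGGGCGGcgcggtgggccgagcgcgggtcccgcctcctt

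Read on both strands, these 194 bases hold GGGCGG at 2 places and CAGCTG at 1, with no overlap between them. CACGTG, the E-box that MYC and MAX prefer, has 0 matches in the window. Of 35116 promoters cut to the same window, 33.8% hold GGGCGG, 11% hold CAGCTG and 4.26% hold CACGTG. These are matches of letters and say nothing of binding.

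The listed MYC row, NM_001354870, was lower in SH1 than in SH3 and in the control. How counts were divided between that row and the other coding transcript of MYC, which is not listed, was not examined. The row had 3.85, 3.8 and 2.82 FPKM in SH3, 1.33, 1.84 and 2.23 FPKM in SH1, and 3.5, 3.83 and 4.15 FPKM in the control. All 3 SH1 libraries lay below all SH3 and all control libraries, whereas SH3 1 and SH3 2 lay within the control range and SH3 3 below it. The means were 3.49 ± 0.581 FPKM in SH3, 1.8 ± 0.451 FPKM in SH1 and 3.83 ± 0.325 FPKM in the control (SD, n = 3 each). Mean FPKM was 0.912 times the control in SH3 and 0.47 times in SH1, and 1.94 times as high in SH3 as in SH1.

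Behind these were 339.65, 336.88 and 252.42 estimated counts in SH3, 115.22, 161.14 and 200.55 in SH1, and 305.16, 340.97 and 356.66 in the control. Counting error ran from 5.3% to 9.32% of a library's value, while the SD between libraries was 16.6% of the mean in SH3, 25.1% in SH1 and 8.49% in the control. The lowest of all 9 values was SH1 1, a library of the pair on which the table was selected.

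Fitted on summed rows, of which MYC has 1, the log2 fold change was -0.22 ± 0.27 (SE) for SH3 against control, -1.25 ± 0.28 for SH1 against control and 1.03 ± 0.28 for SH3 against SH1. Non-overlap with the knockdown lower was found for 7.33% of genes in SH1 against control, and non-overlap with SH3 higher for 9.75% of genes in SH3 against SH1. No MYC value passed the threshold in edgeR's test, where 1.36% of genes and 0.0972% of rows did in SH3 against SH1. Over 18 settings it passed in 0 for SH3 against control, in 1 for SH1 against control and in 1 for SH3 against SH1, each time in DESeq2's test. MYC too was picked from these contrasts, so nothing is read from these passes or from their absence.

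**Figure D1:**
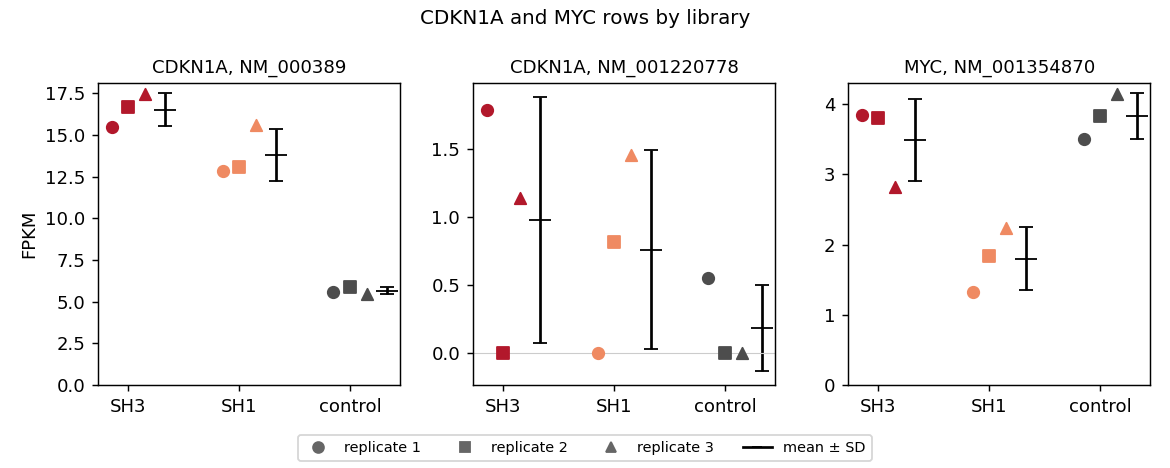
FPKM of the 3 deposited rows of CDKN1A and MYC in each library, by group from left to right SH3, SH1 and control. Symbols mark the replicate number and bars the mean ± SD of 3 libraries; NM_000389 lies between 12.82 and 17.45 in the knockdown libraries, and MYC between 1.33 and 2.23 in SH1.

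The ratio of the 2 members differed between the 3 groups without overlap. How many other pairs of genes do so was not examined. The CDKN1A sum was 4.49, 4.39 and 6.59 times the MYC row in FPKM, a scale per length, in SH3, 9.64, 7.54 and 7.65 times in SH1, and 1.75, 1.54 and 1.32 times in the control. No library of 1 group lay within another group's range. The mean log2 ratio was 2.34 ± 0.33 in SH3, 3.04 ± 0.20 in SH1 and 0.61 ± 0.20 in the control (SD, n = 3 each). SH3 reached its ratio with CDKN1A higher and MYC within or just below the control range, and SH1 with CDKN1A higher and MYC lower. Because both genes were chosen for their levels, the ratio is a description as well, and nothing is read from its separation of the groups.

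**Figure D2:**
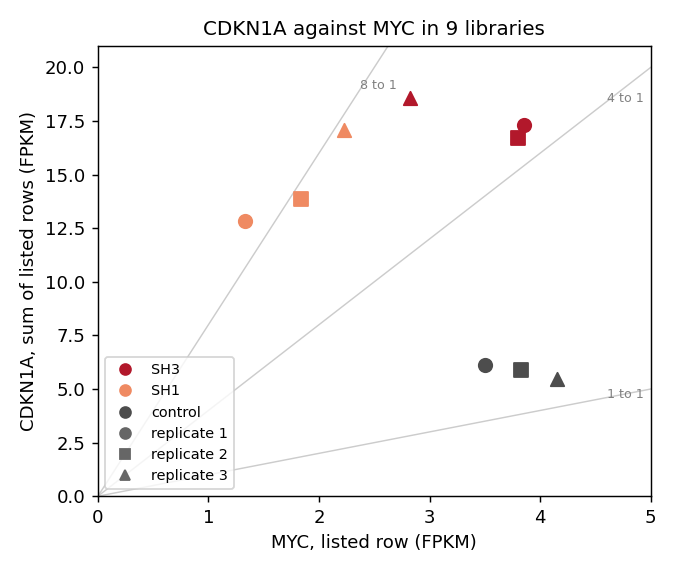
Each of the 9 libraries by its MYC row (horizontal, FPKM) and its CDKN1A sum (vertical, FPKM), with grey lines of equal ratio. Control libraries sit at low CDKN1A and high MYC, SH3 libraries at high CDKN1A with MYC from 2.82 to 3.85, and SH1 libraries at high CDKN1A with MYC from 1.33 to 2.23.

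The wider pathways were described with 22 lists of 398 genes in all. Apart from the marker lists, each list is given by how many members passed the test over all genes and by its median, beside the median log2 fold change of all 6398 genes tested on summed rows, which was -0.03 for SH3 against control, -0.03 for SH1 against control and 0.00 for SH3 against SH1. A gene in several lists is counted in each. Members were tested only where the selected table held rows for them that passed the filter, so the counts cover part of each list. Without overlap of libraries, 10.2% of all genes were higher and 7.13% lower in SH3 than in the control. For SH1 against control these shares were 12.9% and 7.33%, and for SH3 against SH1 9.75% and 12.6%. Separation of all 3 groups at once was not counted over all genes. Of all genes tested, 0.406% passed edgeR's test in SH3 against control, 2.14% in SH1 against control and 1.36% in SH3 against SH1. In the same order of comparisons, DESeq2's test called 257, 460 and 406 of the 6398 genes, and limma 56, 163 and 137. At an unadjusted p under 0.05, edgeR had 8.39%, 11.5% and 10.8% of all genes. The calls of each test below stand beside these shares.

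Upstream of CDKN1A, p53 itself and the genes that control it showed 0 members past the threshold in edgeR's test. Of 27 genes 15 were tested. At an unadjusted p under 0.05 there were 0 in both comparisons with the control and 2 in SH3 against SH1, beside 10.8% of all genes there. DESeq2's test called 1 of the 15 in SH3 against SH1 (DAXX). Their median log2 fold change was 0.23 for SH3 against control and 0.22 for SH1 against control, and 0.25 and 0.35 without control 1 and SH1 1. DAXX, a chaperone that binds p53 and MDM2, averaged 13.7 ± 4.48 FPKM in SH3, 23.8 ± 3.85 in SH1 and 19.3 ± 2.14 in the control (SD, n = 3 each). Among other direct targets of p53, 0 of 15 tested, of 40 listed, passed in any comparison, with edgeR, DESeq2 or limma. At an unadjusted p under 0.05 there were 0 in SH3 against control, 0 in SH1 against control and 1 in SH3 against SH1. Their median was 0.10 for SH3 against control and -0.24 for SH1 against control, and 0.10 and -0.59 without control 1 and SH1 1.

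Single p53 targets varied between libraries of a group. MDM2, the ligase that degrades p53, averaged 3.7 ± 0.257 FPKM in SH3, 2.67 ± 1.92 in SH1 and 3.07 ± 0.635 in the control (SD, n = 3 each). GADD45A, a stress-response gene also on the list of genes repressed by MYC, averaged 6.04 ± 3.08, 9.16 ± 5.8 and 5.33 ± 1.9 FPKM in SH3, SH1 and control.

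Of the other factors known to act on CDKN1A transcription, 1 of 15 tested passed edgeR's test, and it was higher in both knockdowns. Above 0 were 7 of the 15 in SH3 against control and 9 in SH1 against control, beside 48.6% of all genes in each. The median of the 15 was -0.06 for SH3 against control and 0.31 for SH1 against control, but 0.39 and 0.38 without control 1 and SH1 1. EGR1, an immediate-early transcription factor that can activate CDKN1A, had 107.92, 93.97 and 128.08 FPKM in SH3, 92.79, 81.06 and 127.74 FPKM in SH1, and 22.05, 20.35 and 27.82 FPKM in the control. The lowest knockdown library was far above the highest control library, and SH3 and SH1 overlapped. EGR1 had a log2 fold change of 2.15 ± 0.22 (SE; edgeR adjusted p = 0.00824) for SH3 against control, higher in 3 of 3 libraries, and 1.94 ± 0.22 (edgeR adjusted p = 0.0037) for SH1 against control, higher in 3 of 3. For SH3 against SH1 it was 0.21 ± 0.21 (edgeR adjusted p = 0.95). Both passes held without each of the 9 libraries in turn. They were lost when control 1 and SH1 1 were left out together, with an edgeR adjusted p of 0.0986 for SH3 and 0.0518 for SH1, the highest over the alternatives. SP1, which binds the GC box, ranged from 0 to 1.5 FPKM in SH3, from 3.04 to 22.56 in SH1 and from 0.18 to 14.57 in the control, and did not pass.

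Among the other inhibitors of cyclin-dependent kinases, 0 of 3 tested passed in edgeR's test, with 1 at an unadjusted p under 0.05 in SH1 against control and 1 in SH3 against SH1. DESeq2's test called that gene, CDKN1C, and limma called 0. The median of the 3 was 0.10 for SH3 against control and -0.75 for SH1 against control, but -0.02 and -1.85 without control 1 and SH1 1. CDKN1C, which encodes p57 of the same family as p21, was at 0.28, 0.84 and 0.23 FPKM in SH3, at 0 in all 3 SH1 libraries, and at 0.6, 0.41 and 0.47 FPKM in the control. CDKN2D, an inhibitor of CDK4 and CDK6, had 1.81, 1.6 and 1.83 FPKM in SH3, 2.84, 1.98 and 3.82 in SH1, and 0.66, 1.52 and 0.99 in the control. Both knockdowns lay above the control for CDKN2D in every library, without a pass in edgeR's test. The cyclins and kinases that p21 binds had 0 of 8 past the threshold in edgeR's test, with 1 at an unadjusted p under 0.05 in SH1 against control. There DESeq2's test called 1 (CCNE1) and limma 1 (CCNA1). The median of the 8 was 0.23 for SH3 against control and 0.48 for SH1 against control, and 0.18 and 0.99 without control 1 and SH1 1. CCNE1, the cyclin that drives entry into S phase, had 4.0, 4.03 and 4.2 FPKM in SH3, 4.69, 4.75 and 5.54 FPKM in SH1, and 2.73, 2.63 and 3.1 FPKM in the control. All knockdown libraries lay above the control here too, with log2 fold changes of 0.41 ± 0.26 (SE) in SH3 and 0.66 ± 0.26 in SH1. Genes that degrade or stabilise p21 had 0 of 5 past the threshold with edgeR, DESeq2 or limma, and 0 at an unadjusted p under 0.05. Their median was 0.66 for SH3 against control and 0.65 for SH1 against control, but 1.26 and 0.00 without control 1 and SH1 1. The RB and E2F family likewise had 0 of 10, with medians of -0.16 and 0.03, and -0.11 and -0.06 without those libraries.

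Downstream of p21, 16 of 37 listed genes of the G1/S transition were tested. Of these, 2 were above 0 in SH3 against control and 2 in SH1 against control, beside 48.6% of all genes in each. Their median log2 fold change was -0.78 for SH3 against control, -0.67 for SH1 against control and -0.12 for SH3 against SH1. In edgeR's test 0 of 16 passed, and at an unadjusted p under 0.05 there was 1 in SH3 against control and 2 in SH1 against control. DESeq2's test called 1, CCNE1 in SH1, which was higher there, and limma called 0. Without control 1 and SH1 1 the medians were -0.90 and -0.77. SLBP, which binds the ends of histone messages, had 13.32, 12.94 and 21.25 FPKM in SH3, 5.54, 8.91 and 1.39 in SH1, and 16.36, 8.38 and 13.95 in the control. The 2 knockdowns thus stood on different sides of the control mean for SLBP, with a log2 fold change of 0.23 ± 0.59 (SE) in SH3 and -1.43 ± 0.60 in SH1.

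Genes of the G2/M transition had medians closer to that of all genes. Of 24 tested, from 40 listed, 13 were above 0 in SH3 against control and 15 in SH1 against control, with medians of 0.15 and 0.19 (-0.08 and 0.12 without control 1 and SH1 1), and 0 of the 24 passed edgeR's test. There were 2 at an unadjusted p under 0.05 in each of these comparisons, and DESeq2's test called 1 in each (TOP2A in SH3 and CDCA8 in SH1) and limma 0. AURKB, the kinase of the chromosomal passenger complex, had 12.61, 7.87 and 16.48 FPKM in SH3, 20.59, 17.81 and 18.34 in SH1, and 15.01, 18.79 and 19.66 in the control. AURKA, the spindle-pole kinase that also stabilises MYC-family proteins, averaged 11.8 ± 1.83 FPKM in SH3, 9.46 ± 2.97 in SH1 and 7.5 ± 6.65 in the control (SD, n = 3 each). For AURKA the SD of the control exceeded every difference between group means.

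**Figure D3:**
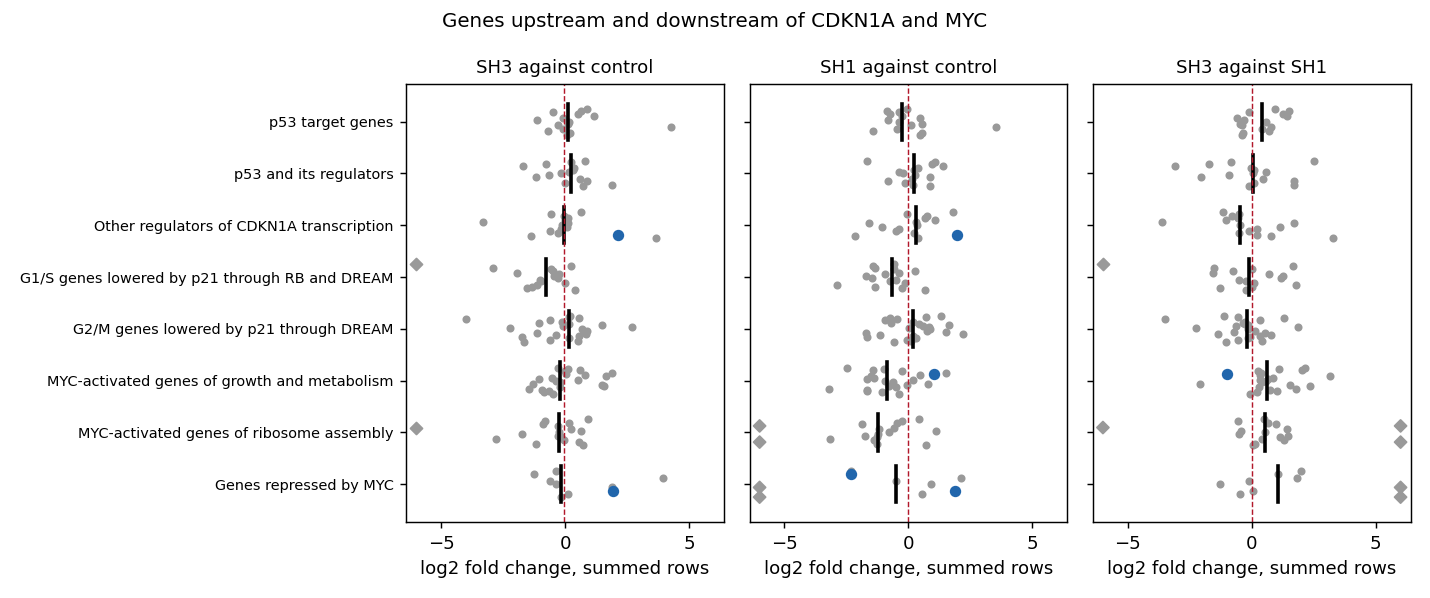
Log2 fold change of the tested members of 8 lists (1 point per gene) in SH3 against control, SH1 against control and SH3 against SH1, on summed rows. Black bars are list medians, the dashed line is the median of all 6398 genes, blue points passed an adjusted p of 0.05 and 12 diamonds lie beyond the axis at 6; G1/S genes lie mostly left of 0 in both knockdowns, and both MYC-activated lists lie left of 0 in SH1.

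Around MYC, the MAX network, whose members compete with MYC for MAX, had 0 of 5 past the threshold in edgeR's test. At an unadjusted p under 0.05 there was 1, MXD1 in SH3 against control, which DESeq2's test called and limma did not. The median of the 5 was 0.30 for SH3 against control and -0.02 for SH1 against control, but 0.68 and 0.46 without control 1 and SH1 1. MXD1, a MAX partner that represses MYC targets, had 1.81, 1.55 and 1.47 FPKM in SH3, 1.24, 1.19 and 1.17 FPKM in SH1, and 0.68, 0.76 and 0.8 FPKM in the control. Its 3 groups did not overlap, with log2 fold changes of 1.02 ± 0.29 (SE) in SH3 and 0.52 ± 0.28 in SH1 against the control, and neither passed with edgeR. MGA, a repressor that also binds MAX, averaged 1.42 ± 0.481, 2.27 ± 1.16 and 2.32 ± 0.793 FPKM in SH3, SH1 and control. The genes of MYC protein turnover had 0 of 11 past the threshold, with 1 at an unadjusted p under 0.05 in SH3 against control, USP37, which DESeq2's test called. Their median was -0.15 for SH3 against control and -0.11 for SH1 against control, but 0.11 and 0.04 without control 1 and SH1 1. The regulators of MYC transcription had 0 of 13 in edgeR's test, with 2 at an unadjusted p under 0.05 in SH3 against control and 1 in SH1 against control. DESeq2's test and limma each called 1 in both comparisons, MAZ, which is named after its values were seen. The median of the 13 was -0.11 for SH3 against control and 0.22 for SH1 against control, but -0.06 and -0.09 without control 1 and SH1 1. MAZ, a zinc finger protein that binds the MYC promoter, had 0 FPKM in all SH3 and SH1 libraries and 1.59 ± 0.227 FPKM in the control (SD, n = 3) over its listed rows; its other transcripts were not analysed here. FUBP1, which binds the far upstream element of MYC, averaged 20.5 ± 5.99 FPKM in SH3, 27.1 ± 2.02 in SH1 and 28 ± 7.01 in the control (SD, n = 3 each).

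Among 7 tested MYC cofactors, of 15 listed, 1 fell in SH3 in edgeR's test. DESeq2's test called 3 there, BPTF, HCFC1 and WDR5, and limma called 0. HCFC1, a chromatin-bound host cell factor that binds MYC, had 0 counts in all 3 SH3 libraries in its 2 listed rows, 1.56, 1.05 and 1.07 FPKM in SH1, and 0.36, 0.3 and 0.59 FPKM in the control. With a floor of 3 counts over the SH3 group, these rows were at least 79.8-fold lower in SH3 than in the control (edgeR adjusted p = 0.00983). They were at least 213-fold lower than in SH1 (edgeR adjusted p = 0.00285). The floor does not cover how counts were divided with transcripts that are not listed, which was not examined. The pass against the control held in 13 of 18 settings. It was lost without SH1 2, without control 1 and SH1 1 together (edgeR adjusted p = 0.104), with the replicate block, in the fit of only these 2 groups and in limma's test (adjusted p = 0.303, the highest of all). The pass against SH1 held in all 18. The other HCFC1 transcripts were not analysed here. The median of the 7 cofactors was -0.86 in SH3 and -0.13 in SH1 against the control, but 0.00 and 0.54 without control 1 and SH1 1.

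Most of the tested genes that MYC activates had a lower fitted level in SH1 than in the control and in SH3. Of 39 genes of growth and metabolism 22 were tested. Of these, 9 were above 0 in SH3 against control, 5 in SH1 against control and 19 in SH3 against SH1. Among all genes tested, 48.6%, 48.6% and 50.3% were above 0 in these comparisons. The median log2 fold change was -0.21 for SH3 against control, -0.86 for SH1 against control and 0.61 for SH3 against SH1. Of 38 genes of ribosome assembly 17 were tested. Of these, 6 were above 0 in SH3 against control, 3 in SH1 against control and 13 in SH3 against SH1, with medians of -0.26, -1.22 and 0.53. Without control 1 and SH1 1, the medians for ribosome assembly were -0.09, -0.58 and 0.44, and those for growth and metabolism -0.19, -0.69 and 0.50, in the same order of comparisons.

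In edgeR's test 1 member of these 2 lists passed, and it went against the list's median. In SH1 against control 7 of 22 and 5 of 17 were at an unadjusted p under 0.05, beside 11.5% of all genes tested, and DESeq2's test called 7 and 3. PKM, which encodes pyruvate kinase of glycolysis, had 59.29, 63.34 and 58.67 FPKM in SH3, 118.54, 115.88 and 149.17 FPKM in SH1, and 51.53, 64.28 and 52.33 FPKM in the control. SH1 stood above both other groups in every library. Its log2 fold change was 1.02 ± 0.16 (SE; edgeR adjusted p = 0.0215) for SH1 against control, higher in 3 of 3 libraries, and -1.0 ± 0.16 (edgeR adjusted p = 0.0312) for SH3 against SH1. Over the alternatives to edgeR's test the adjusted p reached 0.111 and 0.142, and each pass held in 9 of 18 settings. Without control 1 and SH1 1 together both were lost (edgeR adjusted p = 0.084 and 0.0643). The pass for SH1 against control was lost without control 1, control 3, SH1 2, SH3 1, SH3 2 or SH3 3. That for SH3 against SH1 was lost without control 3 or without any 1 of the SH3 and SH1 libraries.

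Other members of these lists lay lower in SH1 without passing in edgeR's test. DESeq2's test called NME1, EIF5A and TCOF1 in SH1 against control, and limma called none of these 3. NME1, a nucleoside diphosphate kinase, had 11.91, 14.16 and 13.42 FPKM in SH3, 5.42, 8.65 and 9.0 FPKM in SH1, and 13.46, 24.23 and 16.0 FPKM in the control. SH1 did not overlap with either other group, and the log2 fold change against the control was -1.39 ± 0.34 (SE) in SH1 and -0.54 ± 0.34 in SH3. NOP2, a methyltransferase of ribosomal RNA, averaged 7.44 ± 1.61 FPKM in SH3, 5.43 ± 1.54 in SH1 and 8.45 ± 0.893 in the control (SD, n = 3 each). TCOF1, the nucleolar protein treacle, had 32.86, 31.77 and 39.91 FPKM in SH3, 27.2, 22.51 and 21.17 in SH1, and 28.38, 27.93 and 31.87 in the control. SH1 lay below the control for TCOF1, by a log2 fold change of -0.48 ± 0.14, and below SH3, which was 0.65 ± 0.14 above it. EIF5A, a translation factor, averaged 58.5 ± 7.08, 50.1 ± 0.803 and 62.9 ± 7.05 FPKM in SH3, SH1 and control. NOP16, a nucleolar protein, averaged 3.3 ± 1.35 FPKM in SH3, 4.95 ± 1.83 in SH1 and 10.4 ± 2.24 in the control.

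Of 17 listed genes that MYC represses 9 were tested. Of these, 2 passed edgeR's test in at least 1 comparison with the control, in opposite directions, and limma called the same 2. DESeq2's test called 3 in SH3 (HES1, NDRG1 and TGFBI) and 4 in SH1 (CDKN1C, HES1, ITGA6 and TGFBI). Of all 6398 genes tested it called 257 in SH3 and 460 in SH1. HES1, a repressor downstream of Notch signalling, had 45.04, 51.2 and 47.16 FPKM in SH3, 37.63, 37.59 and 69.93 FPKM in SH1, and 12.36, 9.02 and 13.9 FPKM in the control. It rose in SH3, by a log2 fold change of 1.95 ± 0.28 (SE; edgeR adjusted p = 0.0375), and in SH1, by 1.89 ± 0.28 (edgeR adjusted p = 0.0154), in 3 of 3 libraries each. The alternatives to edgeR's test reached adjusted p-values of 0.149 and 0.0996. The pass in SH3 was lost when any 1 library except SH1 3 was left out, and that in SH1 without control 1 or control 2 and in the fit of only these 2 groups. Without control 1 and SH1 1 together both were lost (edgeR adjusted p = 0.149 for SH3 and 0.0723 for SH1).

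TGFBI, a secreted matrix protein induced by TGF-beta, had 4.21, 4.08 and 4.66 FPKM in SH3, 1.97, 2.07 and 2.47 FPKM in SH1, and 8.8, 10.14 and 10.02 FPKM in the control. Its 3 groups did not overlap. It fell in SH1, by a log2 fold change of -2.32 ± 0.22 (SE; edgeR adjusted p = 0.00196), lower in 3 of 3 libraries, and the pass held in all 18 settings with an adjusted p of at most 0.0297 in edgeR's test or another. In SH3 the log2 fold change was -1.24 ± 0.21 (edgeR adjusted p = 0.0736). This did not pass in edgeR's test and passed in 2 of 18 settings, DESeq2's test (adjusted p = 4.21e-08) and limma's (adjusted p = 0.04). NDRG1, a differentiation and hypoxia gene that MYC represses, had 17.95, 13.88 and 11.96 FPKM in SH3, 9.62, 1.18 and 2.1 in SH1, and 2.08, 0.18 and 0.46 in the control. All SH3 libraries were above all others for NDRG1, with a log2 fold change of 3.94 ± 1.00 against the control (edgeR adjusted p = 0.238), which DESeq2's test called and edgeR's and limma's did not. The median of the list was -0.15 for SH3 against control and -0.49 for SH1 against control, but 0.46 and -0.10 without control 1 and SH1 1.

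The profiles most like those of the 2 members were sought among 6223 genes with at least 10 counts per library on average. Likeness was the root mean square difference of log2(CPM + 1), centred on the 9 libraries, over which CDKN1A itself spans 1.76 and MYC 1.74. The 5 closest to CDKN1A were SERPINB6 (0.15), CSF3 (0.18), PCDH1 (0.20), SLC8B1 (0.20) and SYTL1 (0.23). CSF3, which encodes the granulocyte growth factor G-CSF, averaged 269.0 ± 16.9 FPKM in SH3, 249.0 ± 16.5 in SH1 and 77.7 ± 6.19 in the control (SD, n = 3 each). SERPINB6, an intracellular protease inhibitor, averaged 20.3 ± 1.34, 15.8 ± 2.12 and 7.63 ± 1.07 FPKM in SH3, SH1 and control. PCDH1, a protocadherin, averaged 12 ± 0.392, 9.37 ± 1.83 and 4.62 ± 1.1 FPKM in the same order of groups.

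The 5 closest to MYC were SAMD4B (0.17), NRP2 (0.18), AKR1A1 (0.18), ZNG1E (0.18) and EPHB2 (0.20). NRP2, a co-receptor for semaphorins and VEGF, averaged 4.53 ± 0.211 FPKM in SH3, 2.41 ± 0.682 in SH1 and 5.08 ± 0.835 in the control. EPHB2, a receptor kinase for ephrins, averaged 5.15 ± 0.241, 2.8 ± 0.711 and 5.11 ± 0.358 FPKM in SH3, SH1 and control. SAMD4B averaged 12.4 ± 0.648, 6.82 ± 2.23 and 15.4 ± 0.33 FPKM (SD, n = 3 each, in the same order of groups). ZNG1E has near-identical family copies, so its counts are uncertain. Genes were ranked on the same 9 libraries that define the members' profiles, and the ranking carries no test.

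**Figure D4:**
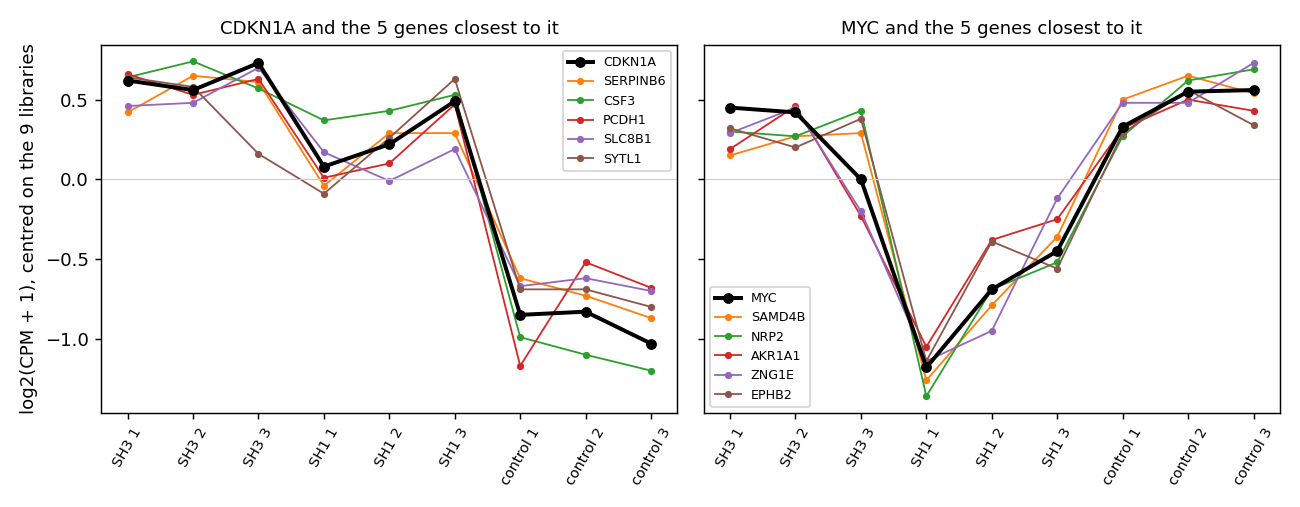
Centred log2(CPM + 1) in the 9 libraries, ordered SH3, SH1 and control, of CDKN1A (left) and MYC (right), each in black with the 5 genes closest to it. The lines with CDKN1A are lowest in the control libraries, and those with MYC dip in the SH1 libraries, lowest in SH1 1.

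The cell label was checked as far as the table allows. Of 10 clear cell carcinoma markers 3 are listed (CD70, VEGFA and PAX8), and their summed level ranged from 30.18 to 38.85 FPKM in SH3, from 55.85 to 66.58 in SH1 and from 18.15 to 25.28 in the control. Of 8 epithelial markers KRT19 and MUC1 are listed, with summed levels of 60.86 to 66.85 FPKM in SH3, 15.93 to 21.92 in SH1 and 70.72 to 89.97 in the control. Listed are 0 of 10 renal tubule markers, 0 of 6 endothelial markers, 1 of 7 fibroblast markers (PDGFRB, at most 0.34 FPKM in any library) and 1 of 7 blood cell markers (CD68, from 7.84 to 17.78 FPKM). Markers outside the table were not analysed here, so their absence from it gives no level.

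KRT19 and CD70 moved in the libraries in which the MYC row was low. KRT19, a keratin of simple epithelia, had 60.29, 66.56 and 60.55 FPKM in SH3, 15.39, 17.54 and 21.6 FPKM in SH1, and 70.11, 89.48 and 82.45 FPKM in the control. It fell in SH1 by a log2 fold change of -2.32 ± 0.20 (SE; edgeR adjusted p = 0.00134), lower in 3 of 3 libraries. CD70, a ligand of the TNF family, had 14.91, 16.59 and 15.57 FPKM in SH3, 42.79, 42.42 and 55.42 FPKM in SH1, and 10.26, 15.32 and 14.17 FPKM in the control. It rose in SH1 by 1.48 ± 0.21 (edgeR adjusted p = 0.0125, up to 0.0823 over the alternatives), and that pass was lost without control 3 or without SH1 2. The part of these shifts in the values of MYC and of its targets was not tested.

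The fold changes of the CDKN1A sum and of MYC kept their direction over the settings tried. That of MYC in SH3 against control, -0.22 ± 0.27 (SE), was smaller than its error. The settings share most of their libraries. For the CDKN1A sum, leaving out each library in turn gave log2 fold changes of 1.46 to 1.56 for SH3 against control, 1.06 to 1.34 for SH1 against control and 0.20 to 0.48 for SH3 against SH1. For MYC the same gave -0.32 to -0.09, -1.40 to -0.98 and 0.80 to 1.22. The MYC difference between SH3 and control thus stayed smaller in each of these fits than that between SH1 and control.

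**Figure D5:**
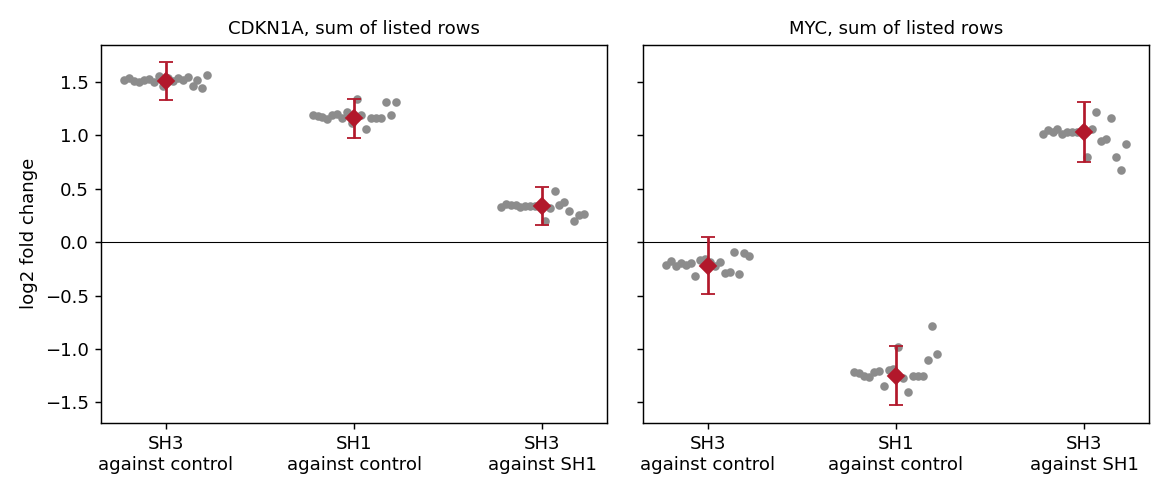
Log2 fold change of the CDKN1A sum (left) and of MYC (right) for SH3 against control, SH1 against control and SH3 against SH1. Red diamonds give the value reported with its SE and grey points the alternative settings. No point crosses 0, but the SE bar of MYC in SH3 against control, the comparison nearest to 0, does.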

How the data were processed

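Total RNA of 9 libraries was sequenced, 3 per group. Per the file headers, the deposited table gives each transcript 4 values per library. Deposited FPKM described levels. Deposited TPM gave the share of each library that the listed rows cover. The deposited estimated count (expected count, 65.11% of values not whole) was rounded for tests. The deposited signal column (normalized read count) was not used; dividing rounded-up estimated counts by 1 factor per library gives it in 100% of values (relative tolerance 1e-06). The submitters' processing notes name the build mm10; aligner and counter are not given in the sources used here. Since 20900 rows (99.957%) carry gene numbers of the human RefSeq table (GRCh38.p14), values were read as human; 85 symbols were updated by gene number, and 0 columns were unassigned.

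Rows and sums per Gene ID were tested with edgeR 4.0.16 (quasi-likelihood, TMM scaling, filterByExpr with a minimum count of 10, 3 comparisons, Benjamini-Hochberg adjustment over 17495 rows or 6398 genes, threshold 0.05) in R 4.3.3, in 1 fit of 9 libraries, after testing on simulated data. Alternatives were DESeq2 1.42.0 size factors and its Wald test, no scaling, no filter, limma 3.58.1 on log2(FPKM + 1), fits of 2 groups, a replicate block, each library left out, control 1 and SH1 1 left out together, and, for the members, pseudocounts of 1 and 0.1 on mean FPKM.

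Members and lists were chosen with earlier results of these data known. Named from each list were all genes past the threshold and then, up to 4, those with the highest mean FPKM; of single genes, the 5 of closest profile. A gene that this rule names is not reported here. Replicates of a group differed well beyond counting error (chi-square per row 41.7 to 58.1), so all were kept. Coordinates and the promoter are from RefSeq (GRCh38.p14); exons are from GENCODE release 29, where CDKN1A rows were matched by transcript name.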

Additional observations from a re-analysis of the deposited data

Results flagged for a closer look

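A difference between SH3 and SH1, tested directly in edgeR's fit of all 9 libraries, was found for 4 genes of the lists. Of all 6398 genes tested on summed rows, 1.36% passed in this comparison, and nothing is read from the number of list genes that did. KRT19 had a log2 fold change of 1.86 for SH3 against SH1, with 62.5 ± 3.55 FPKM in SH3 and 18.2 ± 3.15 FPKM in SH1 (SD, n = 3 each; adjusted p = 0.00344, at most 0.0339 over the alternatives). CD70 had one of -1.41, with 15.7 ± 0.846 FPKM in SH3 and 46.9 ± 7.4 FPKM in SH1 (edgeR adjusted p = 0.0205, up to 0.118 over the alternatives, and lost when control 3 or any 1 of the SH3 and SH1 libraries was left out). PKM had one of -1.0, with 60.4 ± 2.54 FPKM in SH3 and 128.0 ± 18.5 FPKM in SH1 (edgeR adjusted p = 0.0312). HCFC1 had no counts in SH3 in its 2 listed rows, and 1.23 ± 0.289 FPKM in SH1. With a floor of 3 counts over the SH3 group, these rows were at least 213-fold lower in SH3. How counts were divided with its transcripts that are not listed was not examined, so the bound is not one for the whole gene.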

How the results depend on the processing

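The number of genes past the threshold depended on the method. In the order SH3 against control, SH1 against control and SH3 against SH1, edgeR called 5, 23 and 17 rows and 26, 137 and 87 summed genes. DESeq2's test called 359, 493 and 394 rows and 257, 460 and 406 genes. limma on log2(FPKM + 1) called 15, 39 and 41 rows, and 56, 163 and 137 genes. Fits of only the 2 groups compared called 0, 3 and 4 rows and 8, 47 and 54 genes; without control 1 and SH1 1 they were 1, 13 and 5 rows and 7, 57 and 56 genes. Leaving out each library in turn gave 1 to 12, 11 to 20 and 1 to 23 rows and 11 to 25, 59 to 110 and 32 to 92 genes. With 0 rows called for SH3 against control in the fit of 2 groups, edgeR had 1027 rows at an unadjusted p under 0.05 in the fit of all groups.

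The labels share replicate numbers between groups, but the numbers did not pair the libraries: deviations from the group means of same-numbered libraries correlated at -0.08 to 0.07, against -0.05 to 0.11 for other pairs. With the replicate number as a block, 2, 15 and 5 rows and 12, 88 and 39 genes were called.

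Without each library in turn, the CDKN1A sum gave 1.46 to 1.56, 1.06 to 1.34 and 0.20 to 0.48, and MYC -0.32 to -0.09, -1.40 to -0.98 and 0.80 to 1.22. Among the members, the CDKN1A sum for SH1 against control was 1.31 without control 1 and SH1 1 and 1.31 as log2 of mean (FPKM + 0.1), against 1.16 as reported, and for SH3 against SH1 it was 0.20 without those 2 libraries, against 0.34. MYC was -0.79 for SH1 against control and 0.68 for SH3 against SH1 as log2 of mean (FPKM + 1), a pseudocount large beside its level. Leaving out both libraries was also applied to the list medians, after the data had been seen; it moved 2 of them by more than the spread between replicates, those of the 3 inhibitors of cyclin-dependent kinases, to -1.85 for SH1 against control and 1.38 for SH3 against SH1. The row NM_001220778 had fitted values of 8.43 for SH3 against control and 8.02 for SH1 against control without control 1, where that group has no counts, and of 8.42 and 8.60 without both libraries; with the replicate block it had 5.23 for SH1 against control. The causes of these shifts were not tested. Library depth is unknown, so a listed 0 gives no lower limit beyond the counts in the table.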
